A study of Mus musculus with 12 samples.

Results

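A set of 6 genes that mark the scale and interscale areas of tail epidermis were described in basal cells around a tail wound. They were found as the probe sets annotated to a single gene with the symbol Krt36, Krt84, Krt31, Krt35, Slc1a3 or Dlx1. All 6 genes were on the array, each with 1 such probe set, out of 17097 genes in all. The probe sets were 1427751_PM_a_at for Krt36, 1451551_PM_at for Krt84, 1421589_PM_at for Krt31, 1420409_PM_at for Krt35, 1439072_PM_at for Slc1a3 and 1449470_PM_at for Dlx1. All samples came from wounded tails of CD1 mice, with no transgene or drug named in the labels, and the tail wounds of the study were made in adult mice. The leading edge (LE) was a ring punched at 4 mm around a wound of 3 mm, the proliferative hub the next ring punched at 6 mm, and the control a piece of skin far from the wound. Each region was taken at D4 and at D7 after wounding, with 2 arrays for each of these 6 groups. Each array measured 300 sorted basal cells, with α6-integrin and without CD34, from a pool of 5 mice, after amplification of the cDNA. The control skin came from wounded animals, so no group was taken from unwounded mice.

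Mouse tail epidermis between the hair follicles alternates 2 programmes of differentiation. Scales keep nuclei in their cornified layer, make keratins otherwise known from hair and nail, and depend on Wnt and ectodysplasin signalling during patterning. Interscales differentiate as the epidermis of the back does, with Krt1 and Krt10. Hair-type keratins form filaments from a type I partner, such as Krt31, Krt35 and Krt36, and a type II partner, such as Krt84. Slc1a3 encodes a glutamate and aspartate transporter and Dlx1 a homeodomain transcription factor. In mice, Cre drivers of these 2 genes have been used to follow basal cells of the scale (Slc1a3) and of the interscale (Dlx1).

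The promoters of 3 of the keratin genes are shown because Krt36 and Krt84 moved together in the arrays described here while Krt31, which lies close to Krt36, read low throughout. Each is the 250 bases before the start of the gene, 5′ to 3′ on the strand of the gene, from RefSeq on GRCm38.p6. The windows are chr11:100105627-100105876 on the minus strand for Krt36, chr15:101532821-101533070 on the minus strand for Krt84 and chr11:100050552-100050801 on the minus strand for Krt31. Capitals mark matches on either strand to any of 4 motifs, and the 11-base run that Krt36 and Krt31 share. The motifs were TATAAA, bound by the general transcription machinery, CTTTGA, the core that TCF and LEF factors bind, TAATTA, a common homeodomain site, and the AP-1 site, written as TGANTCA.
Krt36: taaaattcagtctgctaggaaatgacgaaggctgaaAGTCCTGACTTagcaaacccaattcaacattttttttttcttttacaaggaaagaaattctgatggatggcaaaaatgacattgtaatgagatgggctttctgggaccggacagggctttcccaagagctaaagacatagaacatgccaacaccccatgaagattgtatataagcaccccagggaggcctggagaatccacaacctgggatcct
Krt84: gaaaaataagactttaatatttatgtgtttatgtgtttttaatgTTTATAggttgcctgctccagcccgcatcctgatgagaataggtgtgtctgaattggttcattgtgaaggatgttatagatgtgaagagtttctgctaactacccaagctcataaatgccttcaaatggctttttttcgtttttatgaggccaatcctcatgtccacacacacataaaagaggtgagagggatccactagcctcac
Krt31: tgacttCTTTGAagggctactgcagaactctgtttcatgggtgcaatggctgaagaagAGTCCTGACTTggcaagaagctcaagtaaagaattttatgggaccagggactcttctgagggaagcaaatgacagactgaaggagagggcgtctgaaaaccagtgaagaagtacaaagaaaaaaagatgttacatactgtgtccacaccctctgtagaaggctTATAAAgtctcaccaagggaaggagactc
Krt36 held no exact match to the 4 motifs in this window. Only exact matches were counted, with N as any base. Near variants of TATAAA, such as those in tatataag of Krt36 and cataaaag of Krt84, were left out. Krt84 held TATAAA on the opposite strand at 206 bases before the start, and Krt31 held it at 29 bases before the start and CTTTGA at 244 bases before the start. Among 32851 promoters of the same length, 12.4% held TATAAA, 13.8% held CTTTGA, 6.75% held the AP-1 site and 4.84% held TAATTA. The run AGTCCTGACTT began 214 bases before the start of Krt36 and 192 bases before that of Krt31. It occurred in the window of 30 of 27025 genes, and of the 36 keratin genes in the table only Krt31 and Krt36 had it. It was picked as the longest run shared by any 2 of the windows, so its rarity is a description only. Among 32851 promoters 0.0913% held it. Krt36 and Dlx1 shared a run of 10 bases that 0.0548% held, and Krt31 and Slc1a3 a run of 10 bases that 0.107% held. The longest run that the windows of Krt36 and Krt84 shared was TTTTTTTC, of 8 bases, which 5.32% of promoters held. Krt36 and Krt35 are neighbours in the type I keratin cluster with 0 protein-coding genes between them, and 2 keratin genes lie between Krt36 and Krt31. Of the 6 genes, 5 had a sequence in the table.

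The sort was checked first, in part, by Krt5 and Krt14 from a list of 8 basal genes. Of that list, Krt15 was called lower and Itga6 and Itgb1 higher in LE against control at D4. High Krt5 and Krt14 do not tell how much suprabasal RNA the sort held. In the control arrays of D4, 9 differentiation genes summed to 13.8 log2, beside 15.0 for the 8 basal genes. Krt5 and Krt14, the keratin pair of basal cells, read between 12.50 and 12.72 log2 intensity on the D4 arrays and between 11.56 and 12.11 on the D7 arrays, near the top of each array. Array medians were 5.40 to 5.47 for D4 and 4.25 to 4.28 for D7, so levels of the 2 days are not on one scale and regions were compared within a day. Replicate arrays correlated with r of 0.988 to 0.993 over probe sets (a description, since probe sets are not replicates). The values are from bulk samples, in which fewer cells of a kind and less RNA per cell cannot be told apart. The sample titles number biological replicates, but separate pools of mice are not stated, and p-values measure the spread between these arrays only, which may be technical.

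Krt36, a type I hair keratin, read high in control skin and fell in the LE at D4. At D4 it read 5.79 and 5.47 log2 intensity in the LE arrays, 9.18 and 11.32 in the hub arrays and 11.65 and 11.54 in the control arrays. The LE arrays lay below all others of that day, and 1 hub array lay just under control while the other was well below it. With 2 arrays a group, such separation is common. Of all genes, 20.2% lay lower and 29.2% higher in the LE than in control without overlap at D4. At D7 these shares were 23.5% and 31.5%. The LE lay below the hub without overlap for 18.5% of all genes at D4 and 21.5% at D7. At D7 the log2 intensity of Krt36 was 7.82 and 4.43 in the LE, 10.55 and 9.31 in the hub and 9.43 and 8.74 in control skin. Both LE arrays were again lower than the hub and control arrays, far apart from each other, and the hub arrays overlapped those of control skin. The share of probe sets on the same array that read lower than Krt36 puts these levels in place. It was 55.5% and 51.1% in the LE at D4, against 99.2% and 99.0% in control skin, so the gene stood near the middle of the LE arrays. At D7 the share was 86.4% and 52.8% in the LE, against 95.9% and 93.1% in control skin.

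Krt84, a type II hair keratin, followed the same order of regions. At D4 its log2 intensity was 6.55 and 6.04 in the LE, 8.29 and 9.83 in the hub and 10.16 and 10.27 in control skin. Here the 3 regions did not overlap, with the LE lowest and control skin highest. The LE lay below control without overlap for 20.2% of all genes at D4. It lay below the hub for 18.5%, and the hub below control for 18.0%. At D7 its log2 intensity was 6.86 and 4.27 in the LE, 9.89 and 8.71 in the hub and 8.02 and 7.33 in control skin. The regions were again apart, but with the hub above control skin. The hub lay above control without overlap for 25.8% of all genes at D7. The LE lay below control for 23.5% and below the hub for 21.5%. On the second LE array of D7, 50.1% of probe sets read lower than Krt84.

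**Figure D1:**
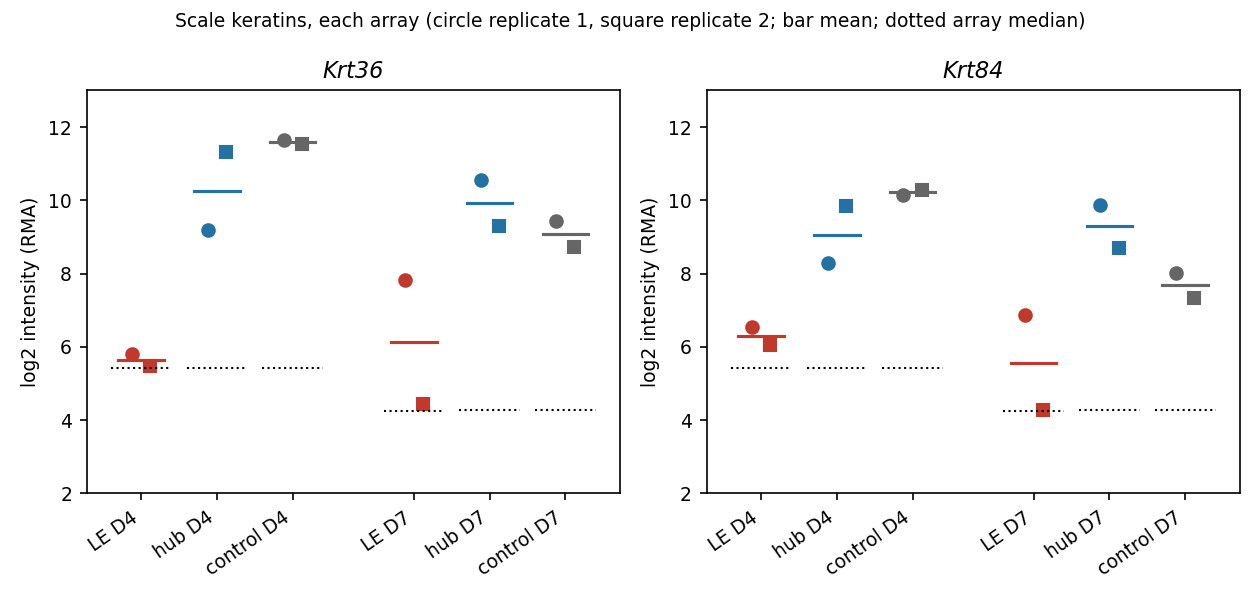
Log2 intensity (vertical axis) of Krt36 and Krt84 on each of the 12 arrays, by region and day (horizontal axis). Circles are replicate 1, squares replicate 2, bars the mean of 2 arrays and dotted lines the median of the arrays of a group. At D4 the LE arrays of Krt36 (5.79 and 5.47) sit close to the array median, and the control arrays (11.65 and 11.54) far above it. At D7 the LE arrays are wide apart (7.82 and 4.43).

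LE and control differed beyond the spread within groups, pooled over all 12 arrays, for Krt36 and Krt84 at D4. The error of a gene came from all 6 groups, so its SE is the same in each comparison of regions. It is not the spread of the arrays compared. Of the 6 genes, 2 fell and 0 rose at D4 by limma's moderated test (adjusted p under 0.05, Benjamini-Hochberg over 17097 genes, here and for every adjusted p), where 5.83% of all genes were called lower, 8.3% higher and 14.1% in either direction. The log2 difference of Krt36 was -5.97 ± 0.97 (SE, n = 2 each, adjusted p = 0.0031 in limma), a reading 62.6-fold lower in the LE. The LE readings lay near the array median and the file holds no detection calls, so whether they were above background is not known and the fold is one of readings only. In this fit the log2 difference of Krt36 was the lowest of all 17097 genes. The 6 genes were chosen with earlier results of these data known, so their ranks among all genes are a description only. The log2 difference of Krt84 was -3.92 ± 0.76 (SE, n = 2 each, adjusted p = 0.0078 in limma), or 15.1-fold lower, the 5th lowest of all genes. Leaving out any 1 of the 12 arrays kept both calls, with adjusted p in limma of at most 0.0201 for Krt36 and 0.0466 for Krt84, each without LE D4 replicate 2.

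At D7 the 2 keratins did not pass that test against control, while Slc1a3 did. The log2 difference from control was -2.96 ± 0.97 for Krt36 (SE, n = 2 each, 95% interval -5.12 to -0.79, adjusted p = 0.0721 in limma). For Krt84 it was -2.11 ± 0.76 (SE, n = 2 each, interval -3.82 to -0.41, adjusted p = 0.0996 in limma). Of the 6 genes, 1 was called lower and 0 higher, where 5.37% of all genes were called lower, 9.25% higher and 14.6% in either direction. These values depended on both LE arrays of D7, where replicate 1 read 3.39 log2 units above replicate 2 for Krt36 and 2.59 for Krt84. Without LE D7 replicate 1 the log2 difference was -4.65 for Krt36 and -3.41 for Krt84. Without LE D7 replicate 2 it was -1.26 and -0.81. Which of the 2 arrays is the more typical is not known. The change of the difference between days was tested as well. The LE difference of Krt36 at D7 minus that at D4 was 3.01 ± 1.37 on the log2 scale (SE, adjusted p = 0.641 in limma), and 0 of the 6 genes passed, where 0.0292% of all genes did and 2 of the 6, Slc1a3 and Dlx1, had an unadjusted p under 0.05.

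In the hub, 0 of the 6 genes passed the test against control skin on either day. At D4, 0 of 6 were called, 0 had an unadjusted p under 0.05, and 0.328% of all genes were called. Krt36 differed by -1.35 ± 0.97 (log2, SE, n = 2 each, interval -3.52 to 0.82, adjusted p = 0.750 in limma) and Krt84 by -1.15 ± 0.76 (interval -2.86 to 0.55, adjusted p = 0.707). The 2 hub arrays of D4 differed by 2.13 log2 units for Krt36 and by 1.54 for Krt84, a wider gap than 99.9% and 99.7% of genes had. Without hub D4 replicate 1, the log2 difference from control was -0.28 for Krt36 and -0.38 for Krt84, and without hub D4 replicate 2 it was -2.42 and -1.92. Melanocyte genes were high on hub D4 replicate 2, the array nearer to control for these keratins. The summed level of 7 such genes was 8.47 to 11.2 log2 in the hub arrays and 8.48 to 10.1 in the control arrays, beside 8.10 to 8.29 in the LE arrays. Dct, an enzyme of melanin synthesis, read 5.48 and 8.60 log2 intensity in the hub arrays and 6.96 and 5.49 in the control arrays. Their part in the result was not tested. At D7, 0 of 6 were called, where 0.76% of all genes were, and 1 of 6, Slc1a3, had an unadjusted p under 0.05. Krt84 lay above control in both hub arrays, with a log2 difference of 1.62 ± 0.76 (SE, n = 2 each, interval -0.08 to 3.33, adjusted p = 0.418 in limma), and Krt36 by 0.85 ± 0.97 (interval -1.32 to 3.01, adjusted p = 0.810). Leaving out 1 array, the log2 difference ran between 0.23 and 1.47 for Krt36 and between 1.04 and 2.21 for Krt84. Between the days, the difference of hub and control changed by 2.77 ± 1.08 for Krt84 (log2, SE, adjusted p = 0.999 in limma), with 0 of 6 genes and 0% of all genes called and 2 of 6, Krt84 and Slc1a3, at an unadjusted p under 0.05.

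Set against the hub, the LE read lower for both keratins on both days. The adjusted p in limma was under 0.05 only for Krt36 at D4 and for Krt84 at D7. At D4 the log2 difference of Krt36 was -4.62 ± 0.97 (SE, n = 2 each, adjusted p = 0.0255 in limma) and that of Krt84 -2.77 ± 0.76 (interval -4.47 to -1.06, adjusted p = 0.0779). At D7 the log2 difference of Krt84 was -3.73 ± 0.76 (SE, n = 2 each, adjusted p = 0.0358 in limma) and that of Krt36 -3.80 ± 0.97 (interval -5.97 to -1.64, adjusted p = 0.0756). That of Krt36 at D7 was -5.50 without LE D7 replicate 1 (adjusted p = 0.0366 in limma) and -2.11 without LE D7 replicate 2 (adjusted p = 0.279). In each case 1 of 6 genes was called, where 2.15% of all genes were called lower at D4 and 1.4% at D7 (4.76% and 2.73% in either direction). In the same fit Krt36 had the lowest log2 difference of all genes on both days, and Krt84 the 2nd lowest at D7, again as a description only. The D4 call of Krt36 was lost without LE D4 replicate 1 (adjusted p = 0.104), LE D4 replicate 2 (0.0930) or hub D4 replicate 2 (0.179). That of Krt84 at D7 was lost without LE D7 replicate 2 (adjusted p = 0.131), either hub array of D7 (0.179 and 0.115) or either control array of D7 (0.0572 each). For the change of the LE and hub difference between days, 0 of 6 genes were called and 0 had an unadjusted p under 0.05 by limma, where 0.0175% of all genes were called. That of Krt36 was 0.82 ± 1.37 on the log2 scale (SE, interval -2.25 to 3.88).

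**Figure D2:**
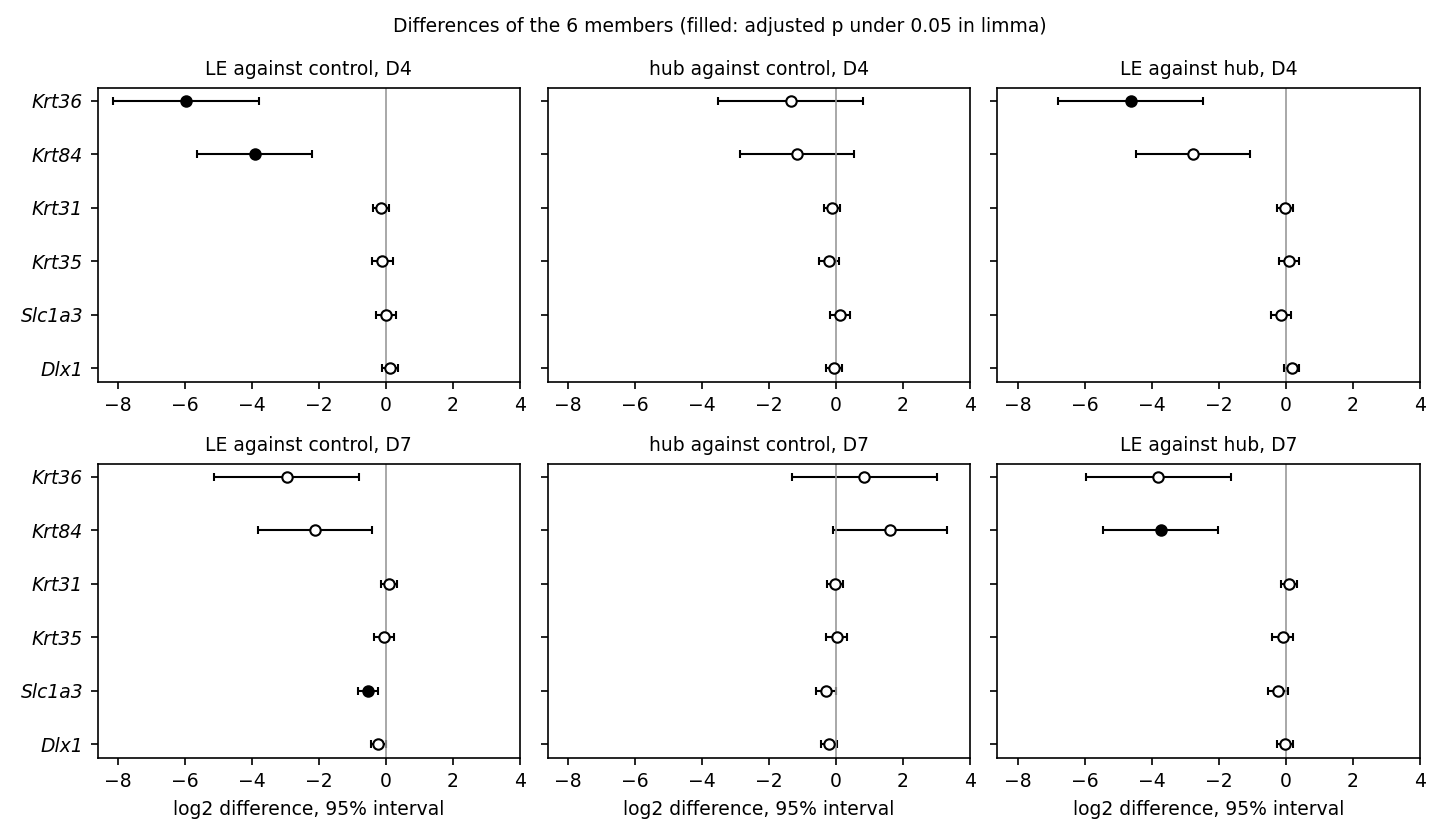
Log2 difference (horizontal axis) of the 6 genes in 6 comparisons of regions within a day, with 95% intervals from limma. Points filled in had an adjusted p under 0.05. Krt36 and Krt84 carry the wide intervals and the large differences (-5.97 and -3.92 in LE against control at D4), and the other 4 genes lie close to 0.

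The study's methods used a fold rule, more than 2-fold in each replicate. To apply it here, each array was set against the array of the same number, a pairing chosen here that the labels do not state. Krt36 was 58.0-fold and 67.5-fold lower in the LE than in control skin at D4, and 3.04-fold and 19.8-fold lower at D7. Krt84 was 12.2-fold and 18.8-fold lower at D4, and 2.23-fold and 8.38-fold lower at D7. So these 2 of the 6 genes met the rule in LE against control at D4 and at D7, as 1.56% and 1.51% of all genes did in the lower direction. The same 2 genes met it in LE against hub, where 0.702% of all genes did at D4 and 0.562% at D7. In hub against control, 0 of 6 met it at D4, where 0.0877% of all genes did in the lower and 0.357% in the higher direction. At D7, 1 did, Krt84 in the higher direction, with 0.328% of all genes. The rule has no error term.

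Krt36 and Krt84 varied together over the arrays, including between replicates. After the mean of the 6 arrays of its day was taken from each value, the log2 intensities of Krt36 and Krt84 had a Pearson r of 0.975 and a Spearman rho of 0.965 over 12 arrays. The arrays share their region, library and amplification, so this r is a description. Among 8548 genes with a mean above the median, Krt84 was the gene most like Krt36 by this r, and Krt36 the most like Krt84. Next to Krt36 came 2410006H16Rik (r 0.956) and Eef1a1 (0.955), and next to Krt84 came Eef1a1 (0.959) and Ift46 (0.944). The size of the differences was much smaller in these genes. The log2 difference of LE from control at D4 was -1.01 for 2410006H16Rik, -0.06 for Eef1a1, a translation elongation factor, and -0.44 for Ift46, a protein of transport in cilia. The 2 keratins also deviated the same way between the replicates of 5 of the 6 groups, with control skin at D4 the exception, where the arrays differed by no more than 0.12 log2 units for either gene. Other pairs among the 6 genes had an r of -0.19 to 0.58.

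**Figure D3:**
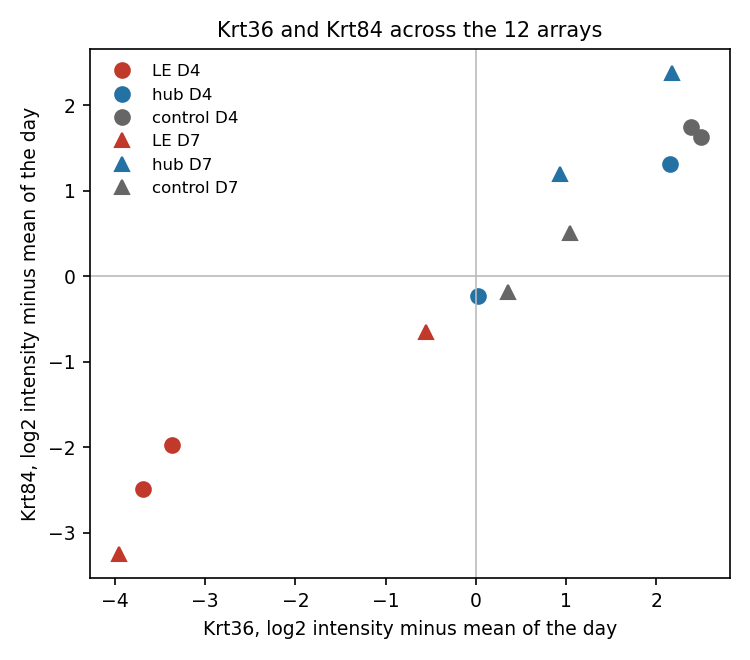
Krt84 (vertical axis) against Krt36 (horizontal axis) on the 12 arrays, each as log2 intensity minus the mean of the 6 arrays of that day. Circles are D4 and triangles D7. The points run along 1 diagonal (Pearson r 0.975), with 3 of the LE arrays at its low end and 1 LE array of D7 near the middle.

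The other 2 type I hair keratins read low on every array. Krt31 gave 4.83 and 4.62 log2 intensity in the LE at D4, 4.79 and 4.70 in the hub and 4.84 and 4.89 in control skin. At D7 the log2 intensity of Krt31 was 3.58 and 3.70 in the LE, 3.48 and 3.58 in the hub and 3.56 and 3.56 in control skin. All these values were under the array median, with 28.2% to 38.9% of probe sets lower. Krt31 was called in 0 of the 6 comparisons of regions, and its log2 difference of LE from control was -0.13 (interval -0.37 to 0.10) at D4 and 0.08 (interval -0.16 to 0.32) at D7. Krt35 gave 4.55 and 4.16 log2 intensity in the LE at D4, 4.34 and 4.17 in the hub and 4.42 and 4.50 in control skin. At D7 its log2 intensity was 2.90 and 2.99 in the LE, 3.11 and 2.97 in the hub and 3.03 and 3.00 in control skin. It stood low on each array, with 3.95% to 27.6% of probe sets lower, and was also called in 0 of 6 comparisons. Its log2 difference of LE from control was -0.10 (interval -0.41 to 0.20) at D4 and -0.06 (interval -0.37 to 0.24) at D7. The file holds no detection calls, and probe sets differ in brightness, so these readings do not tell a low level from none. Of the markers of scale chosen here, Krt36 and Krt84 were therefore bright in control skin and Krt31 and Krt35 were not.

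Slc1a3 also read in the lower part of the arrays. At D4 its log2 intensity was 4.26 and 4.16 in the LE, 4.37 and 4.31 in the hub and 4.14 and 4.27 in control skin, and the LE overlapped control. At D7 it was 3.00 and 3.20 in the LE, 3.26 and 3.42 in the hub and 3.48 and 3.80 in control skin, so that the regions were in order without overlap. The LE lay below control without overlap for 23.5% of all genes at D7. It lay below the hub for 21.5%, and the hub below control for 18.1%. The log2 difference of LE from control at D7 was -0.54 ± 0.13 (SE, n = 2 each, adjusted p = 0.0230 in limma). Between 7.29% and 38.8% of probe sets were lower than Slc1a3 over the 12 arrays, and none of its readings reached the array median. The call was lost without LE D7 replicate 1 (-0.44, adjusted p = 0.154) or without control D7 replicate 2 (-0.38, adjusted p = 0.152). Hub against control at D7 gave -0.30 ± 0.13 (log2, SE, adjusted p = 0.384 in limma). The change of the LE difference between the days was -0.54 ± 0.19 (log2, SE, adjusted p = 0.496 in limma).

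Dlx1, chosen as a marker of interscale, stood slightly above the array median everywhere. Its log2 intensity at D4 was 5.91 and 5.86 in the LE, 5.64 and 5.78 in the hub and 5.67 and 5.85 in control skin. At D7 it was 5.04 and 5.09 in the LE, 5.11 and 5.06 in the hub and 5.26 and 5.32 in control skin. Control skin was above both wound regions at D7 and overlapped the hub at D4. Of all genes, 23.5% had the LE below control without overlap at D7, and 18.1% had the hub below control. Dlx1 was called in 0 of 6 comparisons. Its log2 difference of LE from control was 0.12 ± 0.10 (SE, interval -0.11 to 0.35, adjusted p = 0.549 in limma) at D4. At D7 the log2 difference was -0.23 ± 0.10 (interval -0.46 to 0.00, adjusted p = 0.192).

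**Figure D4:**
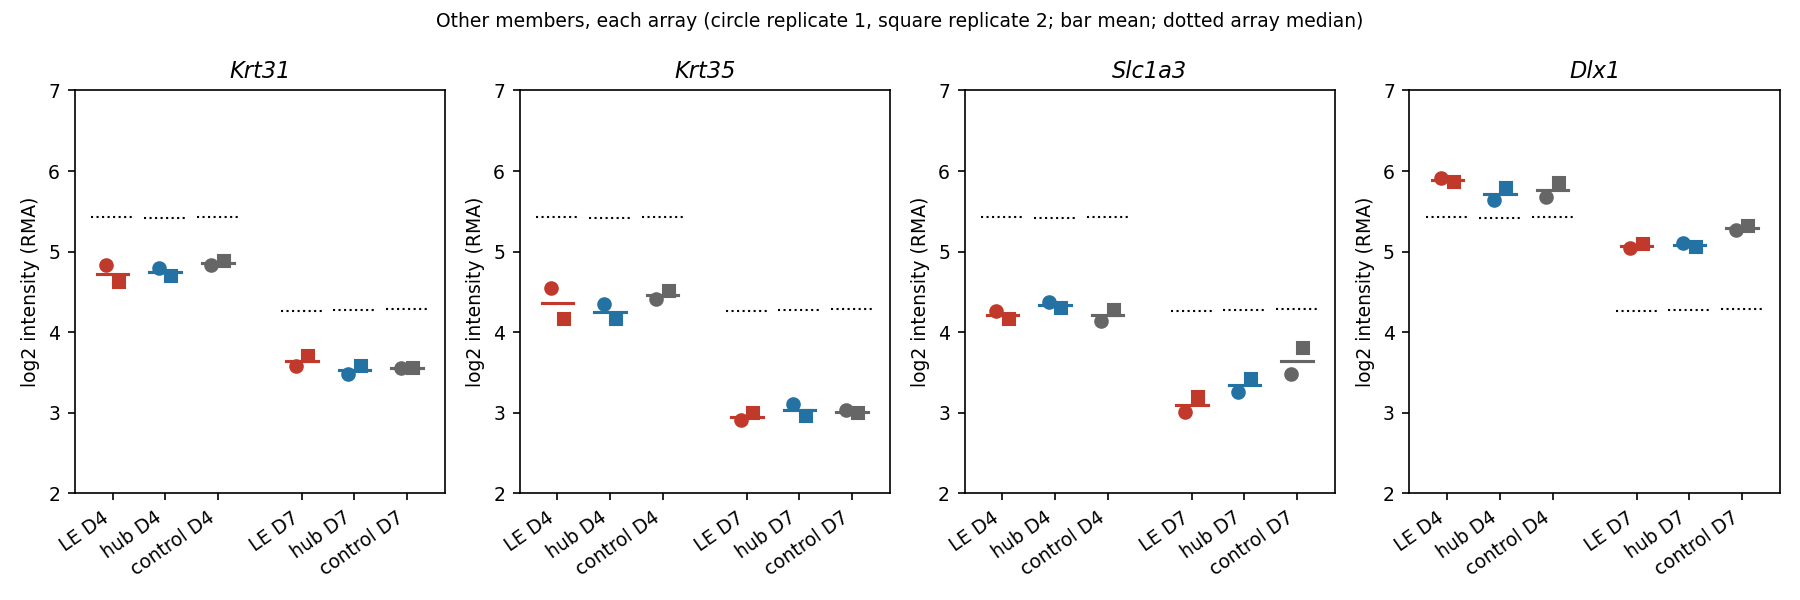
Log2 intensity (vertical axis) of Krt31, Krt35, Slc1a3 and Dlx1 on the 12 arrays, by region and day (horizontal axis), with circles for replicate 1, squares for replicate 2, bars for means of 2 arrays and dotted lines for array medians. Krt31, Krt35 and Slc1a3 stay under the median of every array and Dlx1 above it, and at D7 Slc1a3 is in the order LE (3.00 and 3.20), hub (3.26 and 3.42), control (3.48 and 3.80).

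The most like genes of these 4 by the same r were Susd5 (0.943), Ptpn2 (0.885) and Tas1r2 (0.884) for Krt31, and Diaph2 (0.853), Pacc1 (0.850) and Snx29 (0.842) for Krt35. For Slc1a3 they were Cntrob (0.940), Npff (0.899) and Sp1 (0.893), and for Dlx1 Itgav (0.904), Dnaja4 (0.893) and Col18a1 (0.876), each over 12 arrays.

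Readings of other hair keratins were close to flat. Of 12 listed, 6 were measured (Krt33a, Krt33b, Krt34, Krt81, Krt83 and Krt86), and 0 were called in any of the 6 comparisons of regions by limma. At an unadjusted p under 0.05 there was 1, Krt34, in LE against hub at D7. The median log2 difference of LE from control over these 6 was -0.03 at D4 and -0.03 at D7, beside 0.03 and 0.02 over all genes. Of these 6, 3 read under the array median in both arrays of each region at D4. At D7, 4 did in the LE and 5 in the hub and in control skin. For those, without detection calls, flat readings do not tell an unchanged gene from an undetected one. In the list of scale patterning, 13 of 13 genes were measured, and 3 fell and 0 rose in the LE against control at D4, where 5.83% of all genes were called lower and 8.3% higher. At D7, 4 fell and 0 rose, where 5.37% of all genes were called lower and 9.25% higher. The median log2 difference was -0.19 at D4 and -0.32 at D7, beside 0.03 and 0.02 over all genes. Some members that were not called lay the other way. Prdm1, a transcriptional repressor, read 6.94 and 5.78 log2 intensity in the LE and 5.47 and 5.36 in control skin at D4 (log2 difference 0.94, adjusted p = 0.102 in limma). Foxn1, a transcription factor of hair and epidermal differentiation, read 6.29 and 6.18 in the LE and 5.52 and 5.44 in control skin at D7 (log2 difference 0.76, adjusted p = 0.0599).

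Eda, the ectodysplasin ligand, was called on both days. Its log2 intensity was 6.63 and 6.38 in the LE, 6.99 and 7.01 in the hub and 7.30 and 7.07 in control skin at D4. At D7 it was 4.89 and 4.78 in the LE, 5.80 and 5.33 in the hub and 5.96 and 5.87 in control skin. The LE was lowest on both days without overlap. It lay below control without overlap for 20.2% of all genes at D4 and 23.5% at D7. It lay below the hub for 18.5% at D4 and 21.5% at D7. The log2 difference of LE from control at D4 was -0.68 ± 0.16 (SE, adjusted p = 0.0185 in limma). At D7 it was -1.07 ± 0.16 (adjusted p = 0.0022), and that of LE from hub at D7 was -0.72 ± 0.16 (adjusted p = 0.0463). The D4 call was lost without LE D4 replicate 2 (adjusted p = 0.107) or control D4 replicate 1 (0.102), the D7 call against control in 0 of 12 cases, and the D7 call against the hub in 7 of 12, with the highest adjusted p (0.200) without hub D7 replicate 1. The D7 call against the hub held in 4 of 11 other settings, and with the mean of all probe sets of Eda the log2 difference was -0.32 (adjusted p = 0.105 in limma).

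Edaradd, the adaptor of the ectodysplasin receptor, fell by 1.13 on the log2 scale in LE against control at D7 (adjusted p = 0.0313 in limma), and by 0.37 with the mean of all its probe sets (adjusted p = 0.157). Leaving out 1 array lost this call in 6 of 12 cases, with the highest adjusted p (0.185) without LE D7 replicate 1. Wnt3, a Wnt ligand, fell by 1.44 at D4 (adjusted p = 0.0338), a call lost in 7 of 12 cases, with the highest adjusted p (0.199) without LE D4 replicate 1. Wnt10b, another ligand, fell by 0.89 at D7 (adjusted p = 0.0132), but not without LE D7 replicate 1 (0.107) or control D7 replicate 2 (0.0872). Axin2, a target of Wnt signalling, fell by 0.69 at D4 (adjusted p = 0.0245), a call lost without any 1 of the 4 arrays compared, with adjusted p up to 0.110. Lgr6, a receptor of R-spondins, fell by 0.80 at D7 (adjusted p = 0.0176), but not without either LE array (0.109 and 0.0624) or control D7 replicate 1 (0.112). Of the scale patterning calls, only that of Eda against control at D7 held without each of the 12 arrays in turn. Lef1, the nuclear partner of β-catenin, read between 3.07 and 4.59 log2 intensity over the arrays, with 9.80% to 30.4% of probe sets lower, and was not called.

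Of 12 listed differentiation genes of the interscale type, 9 were measured, and 3 of 9 fell and 0 rose in LE against control at D4, where 5.83% of all genes were called lower and 8.3% higher. Their median log2 difference was -0.19, beside 0.03 over all genes. At D7, where 5.37% of all genes were called lower and 9.25% higher, 0 of 9 had an unadjusted p under 0.05 by limma. Krt1 and Krt10, the suprabasal keratin pair, fell by 0.77 (adjusted p = 0.0147 in limma) and 0.69 (adjusted p = 0.0288) on the log2 scale at D4. Each call was lost without LE D4 replicate 1 (adjusted p = 0.0998 for Krt1 and 0.173 for Krt10) or either control array of D4 (up to 0.0623 and 0.0966). Ivl, a precursor of the cornified envelope, lay the other way at D4, with 8.66 and 7.98 log2 intensity in the LE and 7.73 and 7.47 in control skin (log2 difference 0.72, adjusted p = 0.0800 in limma). Krt2, a later suprabasal keratin, read 3.93 and 7.83 log2 intensity in the LE, 7.30 and 10.73 in the hub and 10.87 and 11.41 in control skin at D4. At D7 its log2 intensity was 8.88 and 4.76 in the LE, 9.89 and 9.69 in the hub and 10.02 and 10.32 in control skin. Krt2 was thus widely spread within the LE on both days. Its replicates 1 and 2 stood in the same order as those of Krt36 in 3 of the 6 groups. Replicate 1 minus 2 was -3.43 for Krt2 and -2.13 for Krt36 in hub D4, 4.12 and 3.39 in LE D7 and 0.20 and 1.24 in hub D7. The order was opposite in LE D4, control D4 and control D7. Its log2 difference of LE from control at D4 was -5.26 ± 1.51 (SE, n = 2 each, adjusted p = 0.0452 in limma), a call lost in 7 of 12 cases, with the highest adjusted p without LE D4 replicate 1 (0.280). At D7 it was -3.35 ± 1.51 (adjusted p = 0.188).

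**Figure D5:**
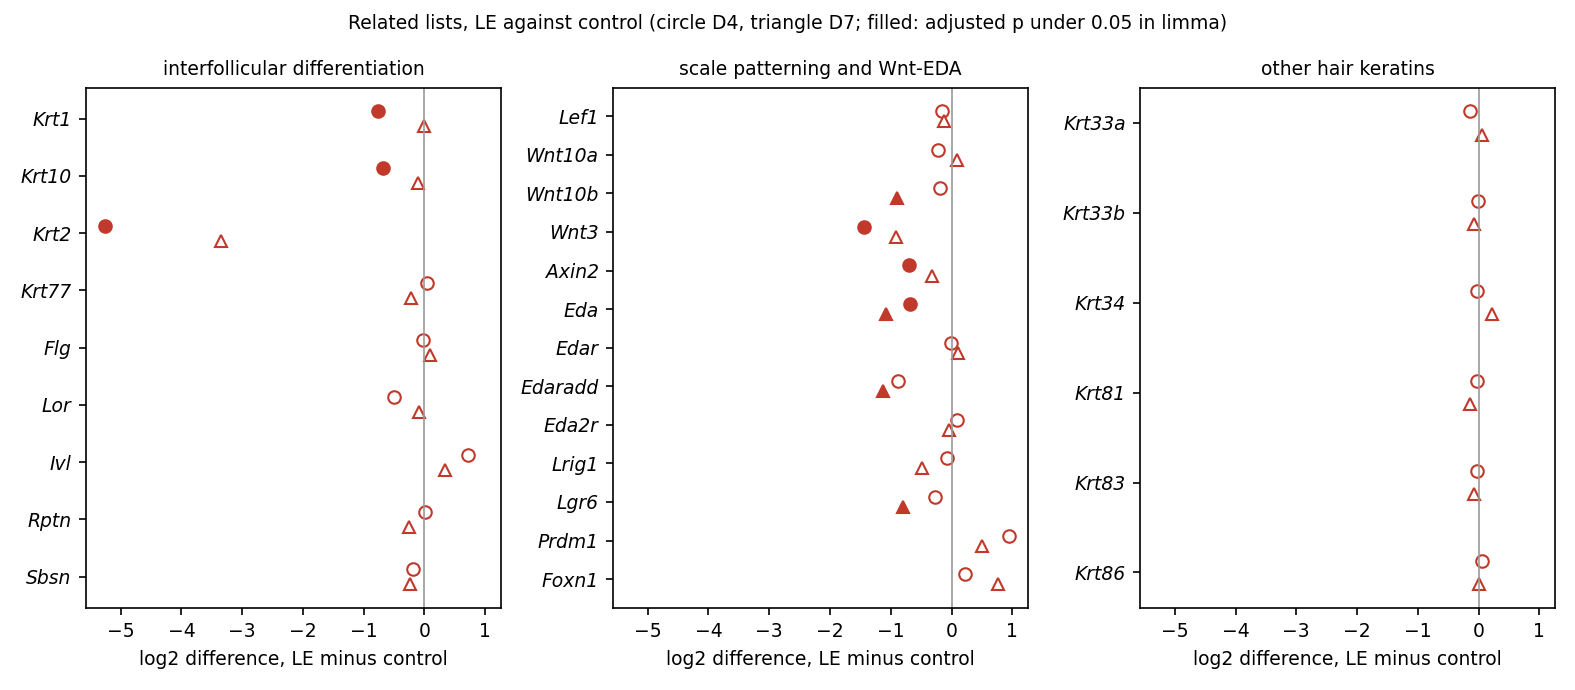
Log2 difference of LE from control (horizontal axis) for each measured gene of 3 lists, with circles for D4 and triangles for D7. Points filled in had an adjusted p under 0.05 in limma, namely 3 of 9 differentiation genes at D4, 3 of 13 scale patterning genes at D4 and 4 at D7, and 0 of 6 other hair keratins.

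Relatives of Slc1a3 and Dlx1 were called in few comparisons. Of 6 listed Slc1 genes, 5 were measured. At D7, 1 of 5 was called higher in LE against control, where 9.25% of all genes were. The median log2 difference of LE from control was 0.02 at D4 and 0.25 at D7, beside 0.03 and 0.02 over all genes. From the hub it was 0.02 at D4 and 0.02 at D7, beside 0.03 and 0.01. Slc1a5, a carrier of neutral amino acids, was higher in the LE than in control skin at D7 by 0.83 (log2, adjusted p = 0.0166 in limma), and Slc1a2, a glutamate transporter, rose in the LE relative to the hub at D4 by 0.92 (adjusted p = 0.0248), where 2.61% of all genes were called higher. The call of Slc1a5 was lost without either LE array or control D7 replicate 1 (adjusted p up to 0.104) and with the mean of all its probe sets (0.32, adjusted p = 0.381), and that of Slc1a2 without LE D4 replicate 1 or either hub array of D4 (up to 0.150). The other Dlx genes, 5 of 5 measured, were called in 0 of 6 comparisons by limma, with a median log2 difference of LE from control of -0.29 at D4 and -0.35 at D7, and 1 (Dlx5) and 2 (Dlx2 and Dlx5) at an unadjusted p under 0.05.

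Markers of other cells that the sort could hold were set beside the keratins. Bulge cells were among them, though the study stained bulge cells with CD34 and the sort was without CD34. In LE against control, 5.83% of all genes were called lower and 8.3% higher at D4, and 5.37% and 9.25% at D7. Of the hair matrix and precortex list, 10 of 10 were measured (Lef1 and Foxn1 are also in the scale patterning list and Dlx3 among the other Dlx genes), and LE against control gave 1 lower at D4 (Gata3, -0.71 log2) and 1 higher at D7 (Padi3, 0.62). The call of Gata3 was lost in 7 of 12 cases of leaving out 1 array, with -0.44 without control D4 replicate 2 (adjusted p = 0.224 in limma), and that of Padi3 in 2 of 12. Its summed level was 9.37 to 9.57 log2 in the LE, 9.42 to 9.88 in the hub and 9.65 to 10.1 in control skin at D4, and 8.48 to 8.57, 8.70 to 8.80 and 8.60 to 8.70 in the same order at D7. Of the inner root sheath list, 6 of 8 were measured and 1 was higher at D4 (Tchh, 0.71, a call lost in 3 of 12 cases), and its summed level was 7.64 to 7.73 in the LE, 7.66 to 7.69 in the hub and 7.63 to 7.73 in control skin at D4. The 6 other hair keratins summed to 8.07 to 8.24 log2 in the LE, 8.12 to 8.13 in the hub and 8.15 to 8.21 in control skin at D4.

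Other marker lists differed in direction. In lists this short, 1 call tells little beside the 5.83% of all genes called lower and 8.3% higher at D4 (5.37% and 9.25% at D7). A summed level follows the brightest genes of its list. Thy1, in the immune list and known from T cells, had a log2 difference of LE from control of -1.39 at D4 and -1.88 at D7 and was the 1 of 8 measured genes called, and the summed immune level at D4 was 9.17 to 9.18 log2 in the LE, 9.82 to 10.1 in the hub and 10.1 to 10.4 in control skin. In the LE at D4, 5 of these 8 genes were under the array median. The median log2 difference of the 8 from control was -0.10 at D4, beside 0.03 over all genes. Of 8 bulge genes, Postn (-1.32) and Sox9 (-0.61) were lower and Fgf18 (2.10) higher in the LE at D4. The list summed to 11.1 to 11.3 log2 in the LE, 11.6 to 11.8 in the hub and 11.7 to 12.1 in control skin. The median log2 difference of the bulge list from control was 0.21, beside 0.03 over all genes, so sum and median went opposite ways. The call of Sox9 was lost in 8 of 12 cases of leaving out 1 array, and with the mean of all its probe sets the log2 difference was -0.07 (adjusted p = 0.854 in limma). Of 8 basal genes, Krt15, a keratin of basal and follicle cells, was lower (-2.48) and Itga6 (0.42) and Itgb1 (0.75) were higher at D4. Of 4 infundibulum genes measured, 1 (Plet1, -0.86) was lower at D7, and the list summed to 11.0 in both LE arrays, 11.4 in both hub arrays and 11.6 to 11.9 log2 in control skin. Dcn, of 6 fibroblast genes, was lower (-2.59) and Cdh5 (2.03) and Cldn5 (0.71), of 6 endothelial genes, were higher in the LE at D7. The fibroblast list summed to 6.14 to 6.38 log2 in the LE, 6.43 to 6.45 in the hub and 7.23 to 7.33 in control skin at D7, and the endothelial list to 8.16 to 8.44, 7.09 to 7.29 and 7.04 to 7.37 in the same order. The median log2 difference of LE from control at D7 was -0.11 for the fibroblast list and 0.70 for the endothelial list. It was -0.69 for the infundibulum list and 0.02 over all genes. Of 5 sebaceous gland genes measured, Pparg (1.20) was higher at D4 and 0 were called at D7, with 2 at an unadjusted p under 0.05 in limma. Leaving out 1 array lost the calls of Itga6, Dcn, Cdh5 and Pparg against control in 4 of 12 cases each and that of Cldn5 in 1 of 12. Of 7 melanocyte and 3 glial genes, 0 were called in LE against control on either day by limma, and 0 had an unadjusted p under 0.05. The median log2 difference of the melanocyte list at D4 was -1.02 in LE against control and -1.48 in LE against hub, where 2 of 7 had an unadjusted p under 0.05 and 0 were called by limma. Its summed level at D4 was 8.10 to 8.29 log2 in the LE, below the hub (8.47 to 11.2) and control skin (8.48 to 10.1). The part of these cells in the keratin results was not tested.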

How the data were processed

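Basal cells of 3 regions at 2 times were measured on Affymetrix mouse expression arrays. The deposited values are log2 intensities that the authors had made by RMA. No new normalization was made, and all 12 columns were used. RMA was likely run apart for each day, as the array medians differ, so a region was set only against others of its day. The days were compared only through the differences of regions within each day. Of 45141 probe sets, 28898 were paired with 1 gene, 551 with several and 15588 with none, and 104 were controls. For each of 17097 genes the probe set of highest mean was used. A model of the 6 groups was fitted in limma 3.58.1 (R 4.3.3) with 6 residual degrees of freedom, two-sided, with Benjamini-Hochberg adjustment over all genes, and calls at an adjusted p under 0.05. The number of arrays limits the precision. The 6 genes and all lists were chosen with earlier results of these data known. Named are the 6 genes, up to 4 called genes of a list with the largest change and any that went against the rest, and the 3 genes most like each of the 6. A summed level is the log2 of the summed linear intensities of a list. Alternatives were other scalings, probe set choices, filters, priors, subsets of arrays, a replicate block, a 2-fold limit and leaving out each array. The procedure was tested on simulated data. Promoter windows came from RefSeq.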

Additional observations from a re-analysis of the deposited data

How the results depend on the processing

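The 2 calls at D4 in LE against control kept their direction and side under each of 12 alternatives and without any 1 array, and their log2 difference stayed between -6.15 and -5.80 for Krt36 and -4.18 and -3.66 for Krt84. The other counts of the 6 genes moved. In LE against control at D7 the count was 1, but 0 with only the arrays of the 2 groups, 0 with a 2-fold limit in addition and 0 to 2 without 1 array. In LE against hub at D4 and at D7 the count was 1 each, but 0 with a trended and robust prior, 0 with only the arrays of the 2 groups and 0 to 2 without 1 array, on either day. The trended and robust prior gave adjusted p = 0.0976 for Krt36 at D4 and 0.0989 for Krt84 at D7, and the cause was not tested. A filter on dim genes drops Slc1a3, and with it Krt36 passed in LE against control at D7 (adjusted p = 0.0491). With folds of group means in place of folds in each replicate, 2 genes rather than 0 met the rule in hub against control at D4. Over all genes, the arrays of the 2 groups alone gave 895 calls rather than 2416 in LE against control at D4, 196 rather than 813 in LE against hub at D4 and 0 rather than 56 in hub against control at D4. The arrays of the day alone gave 725 rather than 466 in LE against hub at D7, and the trended and robust prior 148 in hub against control at D4 and 205 rather than 130 at D7. No called value changed sign under these alternatives. Some values that were not called and lay near 0 did, such as the log2 difference of Krt35 in LE against control at D4 (-0.30 to 0.09) and the change of the LE and hub difference of Krt36 between days (-0.88 to 2.51).

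With the replicate number as a block within the day, 3 genes were called in LE against control at D7 (Krt36 with adjusted p = 0.0292 and Krt84 with 0.0328), 2 in LE against hub at D4 (Krt84 0.0234) and 2 at D7 (Krt36 0.0324). The labels do not say that a number marks a shared pool, and replicate differences of 2 regions correlated with r of 0.17 to 0.245 at D4 and 0.00234 to 0.0666 at D7 over genes, so the block is given here only. With 2 arrays a group and no detection calls, small changes of Krt31, Krt35 and Slc1a3 near the low end of the arrays could not be resolved.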
